A study of Mus musculus with 6 samples.

Results

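AP-1 is a family of dimeric transcription factors, described here through 10 of its genes, *Jun*, *Junb*, *Jund*, *Fos*, *Fosb*, *Fosl1*, *Fosl2*, *Atf3*, *Maff* and *Mafk*. They were taken by gene name from a table of 41721 genes, and all 10 were found and had enough reads to be tested. The table holds RNA-seq of mouse aortic smooth muscle cells (MASMCs), grown from abdominal aortas and treated with angiotensin II (Ang II), a hormone that contracts vessels and drives the mouse model of abdominal aortic aneurysm. The comparison asks how loss of *Pdk4*, which encodes a mitochondrial kinase that restrains pyruvate dehydrogenase, altered the transcriptome of these cells. There were 3 libraries of Pdk4fl/fl cells, in which loxP sites flank exons 4 to 6 of *Pdk4*, and 3 of Pdk4SMKO cells, which carry the same floxed alleles together with *Myh11*-driven, tamoxifen-inducible Cre. The methods of the study give tamoxifen for mice of both genotypes, isolation of MASMCs at 10 weeks of age, use at passages 4 to 8, and Ang II at 1 μM for 48 h. The labels name Ang II alone, and there was no culture without Ang II, so the values describe treated cells only. Cre acts only in cells that express *Myh11*, so other cell types in a Pdk4SMKO culture keep *Pdk4*. The study calls the 3 libraries of a genotype biological replicates, without saying whether they came from separate mice, and the p-values measure the spread between these libraries.

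Between 16526044 and 22481670 reads were counted on genes in a library. *Pdk4* had 570, 639 and 421 counts in Pdk4fl/fl and 110, 182 and 141 in Pdk4SMKO, a log2 fold change of -2.34 (SE 0.22, edgeR adjusted p = 4.49e-06). *Xist*, which is transcribed from the inactive X chromosome of female cells, had 3, 4 and 5 counts in Pdk4fl/fl and 610, 347 and 321 in Pdk4SMKO. The labels give no sex. The study names male mice and a Y-linked *Myh11*-Cre transgene, so *Xist* transcripts go against its description of the libraries labelled Pdk4SMKO. In these libraries, sex or the origin of the cells and genotype cannot be told apart, which holds for every difference given here. Correlations of log2 CPM, the counts scaled to a common total, were at least 0.981 within a genotype and at most 0.748 between genotypes. Of the 14085 genes tested, 26.5% were called lower and 32.8% higher in Pdk4SMKO (edgeR adjusted p below 0.05 with a change of 2-fold or more). The counts of AP-1 genes and of every other list below are to be read against this background. Among the 307 genes with a mean of at least 500 CPM over all 6 libraries, 63.5% were called lower. This mean takes in both genotypes, so a gene can enter through the genotype in which it is high. *Jun*, *Junb*, *Atf3* and *Maff* entered in this way, with Pdk4SMKO means of 36.9, 365, 52.9 and 140 CPM. In bulk RNA, fewer cells of a type and less RNA per cell cannot be told apart.

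AP-1 proteins are basic leucine zipper (bZIP) factors. JUN, JUNB and JUND can pair with each other or with a FOS protein (FOS, FOSB, FOSL1, FOSL2), whereas FOS proteins need a JUN partner, and the dimers bind the TPA response element, TGACTCA, or the related cyclic AMP response element, TGACGTCA. ATF3 is a stress-induced factor of the ATF/CREB branch that also pairs with JUN proteins. MAFF and MAFK are small MAF proteins, which lack a transactivation domain and depend on partners such as NRF2 or BACH1. Several of these genes are immediate early genes, transcribed within minutes of a mitogen, Ang II or stress and encoding short-lived mRNAs, and in vascular smooth muscle they are known for their response to injury and growth factors.

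The sequences just upstream of the start sites were searched because AP-1 dimers are known to act on promoters of AP-1 genes. They are shown for *Jun*, *Fos*, *Atf3* and *Maff*, picked with the counts known. These genes were lower in Pdk4SMKO, as were *Junb*, *Fosl1* and *Mafk*. RefSeq's table of the GRCm38.p6 assembly matched 9 of the 10 genes, all but *Fosl1*, and gave 11 start sites, of which *Maff* has 3. Each line holds the 250 bases before the start, 5′ to 3′ along the gene, with the letters found by the search in capitals.
Jun, chr4:95052223-95052472 (- strand): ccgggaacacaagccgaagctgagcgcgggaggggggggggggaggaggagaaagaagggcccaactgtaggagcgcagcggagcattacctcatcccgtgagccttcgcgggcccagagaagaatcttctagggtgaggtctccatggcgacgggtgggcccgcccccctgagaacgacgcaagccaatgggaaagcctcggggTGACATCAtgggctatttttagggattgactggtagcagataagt
Fos, chr12:85473640-85473889 (+ strand): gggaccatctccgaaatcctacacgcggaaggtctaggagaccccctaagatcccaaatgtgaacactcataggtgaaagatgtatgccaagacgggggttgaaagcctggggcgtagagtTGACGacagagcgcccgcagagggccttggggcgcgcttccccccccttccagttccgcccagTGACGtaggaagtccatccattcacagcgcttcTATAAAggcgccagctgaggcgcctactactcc
Atf3, chr1:191183334-191183583 (- strand): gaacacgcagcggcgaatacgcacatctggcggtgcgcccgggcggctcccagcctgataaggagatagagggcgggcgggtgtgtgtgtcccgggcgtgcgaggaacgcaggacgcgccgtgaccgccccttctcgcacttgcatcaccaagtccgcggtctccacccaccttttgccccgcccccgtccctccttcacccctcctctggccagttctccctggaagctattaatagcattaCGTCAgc
Maff, start 2, chr15:79347270-79347519 (+ strand): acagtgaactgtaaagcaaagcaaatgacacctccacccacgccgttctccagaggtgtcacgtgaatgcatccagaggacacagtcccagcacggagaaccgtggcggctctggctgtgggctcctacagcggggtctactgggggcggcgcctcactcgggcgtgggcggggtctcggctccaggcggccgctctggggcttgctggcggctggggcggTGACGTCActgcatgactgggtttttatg
Maff, start 3, chr15:79348152-79348401 (+ strand): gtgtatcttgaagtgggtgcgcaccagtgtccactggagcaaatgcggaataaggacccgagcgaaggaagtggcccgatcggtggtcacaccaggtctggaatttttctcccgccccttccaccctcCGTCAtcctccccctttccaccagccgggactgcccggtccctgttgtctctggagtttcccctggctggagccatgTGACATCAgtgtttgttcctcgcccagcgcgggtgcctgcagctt
The search covered both strands for TGACTCA, TGACGTCA, the variant TGACATCA known from *Jun*, the shorter TGACG that also lies inside TGACGTCA, the CArG box and TATAAA. *Jun* held TGACATCA 45 to 38 bases before the start, and the third *Maff* start held the same letters at the same distance. This variant stood in 2.93% of 32851 promoters of the same length. The second *Maff* start held a full TGACGTCA 29 to 22 bases upstream, which was present in 1.55% of promoters. *Fos* held TGACG at 129 to 125 and at 66 to 62 bases and TATAAA at 33 to 28 bases. *Atf3* held TGACG on the opposite strand, shown as CGTCA, 7 to 3 bases before the start. TGACG also occurred in *Junb*, *Fosb* and *Mafk*, and stood in 17.8% of all promoters. Of the other letters searched, TATAAA stood in 12.4%, TGACTCA in 4.46% and the CArG box in 1.47% of promoters. The windows of *Jund*, *Fosl2* and the first *Maff* start held none of these letters. No window held TGACTCA or a CArG box. Bases more than 250 before a start were not searched, so elements further upstream, in *Fos* or another gene, would be missed. A match describes the letters alone, and binding was not measured.

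In Pdk4SMKO cells, 7 of the 10 AP-1 genes were lower and 0 higher. *Jun*, *Junb*, *Fos*, *Fosl1*, *Atf3*, *Maff* and *Mafk* fell by between 3.70-fold and 77.6-fold, while *Jund*, *Fosb* and *Fosl2* did not pass the call. The 7 lower genes were those whose 3 Pdk4SMKO libraries all lay below the 3 Pdk4fl/fl libraries, an order found in 38.3% of genes tested. *Fosb* and *Fosl2* lay wholly above, an order found in 43.5%. The median log2 fold change of the 10 genes was -2.71, and that of all genes tested was 0.12. At an unadjusted p under 0.05 the count of higher genes was also 0 with the 2-fold limit, and 2 (*Fosb* and *Fosl2*) passed the p-value limit without it. DESeq2 called 0 higher and 7 lower. An exact two-sided permutation test over the 6 libraries cannot give p below 0.1, and gave that value for every gene of the family but *Jund*.

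**Figure D1:**
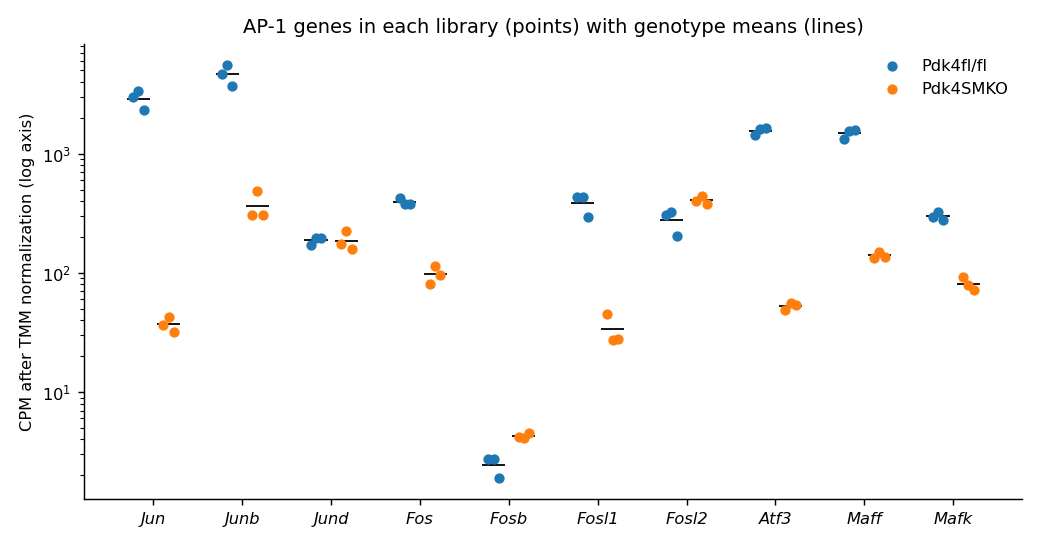
Each point is 1 library and each line the mean of 3 libraries, in CPM after TMM normalization on a log axis. The Pdk4SMKO points of *Jun* lie between 31.8 and 42.3 against 2312 to 3327 in Pdk4fl/fl, those of *Jund* overlap, and those of *Fosb* and *Fosl2* lie above.

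Among the JUN partners, *Jun* and *Junb* fell while the level of *Jund* could not be separated between genotypes. *Jun* (MGP_C57BL6NJ_G0028876, chr4:98755429-98758617, minus strand of the C57BL/6NJ assembly) encodes a transactivating partner of the family. It stood at 2968, 3327 and 2312 CPM in Pdk4fl/fl and at 36.7, 42.3 and 31.8 CPM in Pdk4SMKO. The groups were far apart, with 30547 counts in the lowest Pdk4fl/fl library and 849 in the highest Pdk4SMKO library. The mean of 36.9 ± 5.21 CPM (SD, n = 3) was 1.29% of the Pdk4fl/fl mean of 2869 ± 515 CPM, and the log2 fold change was -6.28 (SE 0.21, edgeR adjusted p = 1.17e-08). Of the 14085 genes tested, 167 had a lower log2 fold change. The antisense gene *Junos*, which overlaps *Jun*, had 36 to 48 counts in Pdk4fl/fl and 6 to 13 in Pdk4SMKO. Whether the counting used strand is not given in the sources used here, so reads of this pair cannot be told apart.

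*Junb* (MGP_C57BL6NJ_G0034380, chr8:89205616-89207455, minus strand) encodes a JUN protein of weaker transactivation that is also induced at once by serum. It read 4628, 5586 and 3717 CPM in Pdk4fl/fl and 306, 485 and 304 CPM in Pdk4SMKO. Replicate 2 was the highest library in each genotype and the groups did not overlap. The mean fell 12.7-fold, from 4644 ± 935 to 365 ± 104 CPM (SD, n = 3 each), with a log2 fold change of -3.67 (SE 0.24, edgeR adjusted p = 3.43e-07). *Jund* (MGP_C57BL6NJ_G0034215, chr8:73659962-73662838, plus strand) encodes the JUN protein that is expressed broadly in resting cells. It read 170, 196 and 198 CPM in Pdk4fl/fl and 175, 225 and 158 CPM in Pdk4SMKO, so the groups overlapped at both ends. The log2 fold change was -0.01 with a 95% interval of -0.34 to 0.31 (edgeR adjusted p = 0.93, exact permutation p = 1.0). This interval leaves out a 2-fold change in either direction under TMM, and with library size alone the value was 0.59.

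The FOS partners divided in the same way, with *Fos* and *Fosl1* lower and *Fosb* and *Fosl2* not. *Fos* (MGP_C57BL6NJ_G0020349, chr12:88741461-88744847, plus strand), the classical immediate early gene, read 422, 375 and 380 CPM in Pdk4fl/fl and 81.1, 114 and 95.5 CPM in Pdk4SMKO. Every Pdk4SMKO library lay below every Pdk4fl/fl library by a wide margin. The mean fell 4.05-fold, from 392 ± 25.9 to 96.9 ± 16.5 CPM (SD, n = 3 each), and the log2 fold change was -2.02 (SE 0.15, edgeR adjusted p = 7.39e-07). *Fosl1* (MGP_C57BL6NJ_G0025119, chr19:2470854-2480774, plus strand) encodes FRA-1, a FOS protein without the strong transactivation domain of FOS and itself a target of AP-1. It read 437, 437 and 294 CPM in Pdk4fl/fl and 45.4, 27.5 and 28.1 CPM in Pdk4SMKO. The mean fell 11.6-fold, from 389 ± 83.0 to 33.7 ± 10.2 CPM (SD, n = 3 each), with a log2 fold change of -3.53 (SE 0.24, edgeR adjusted p = 4.82e-07).

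*Fosl2* (MGP_C57BL6NJ_G0029863, chr5:32004578-32026626, plus strand) encodes FRA-2, the other FRA protein. It read 305.5, 324 and 203 CPM in Pdk4fl/fl and 402, 438 and 381 CPM in Pdk4SMKO. All 3 Pdk4SMKO libraries were above the Pdk4fl/fl libraries, by 1.47-fold in the means, and the log2 fold change was 0.55 (95% interval 0.17 to 0.94, edgeR adjusted p = 0.0133). *Fosb* (MGP_C57BL6NJ_G0032217, chr7:18160456-18167782, minus strand) was the least abundant gene of the family, with 41, 50 and 25 counts in Pdk4fl/fl and 96, 82 and 93 in Pdk4SMKO. These correspond to 2.73, 2.75 and 1.89 CPM against 4.21, 4.08 and 4.56 CPM. The log2 fold change of *Fosb* was 0.79 (95% interval 0.20 to 1.39, edgeR adjusted p = 0.0187). Both genes passed the p-value limit but not the fold limit. With library size alone, *Fosl2* at 1.15 and *Fosb* at 1.40 were called higher, as were 43.9% of all genes tested, and with upper-quartile factors *Fosb* was called at 1.01.

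*Atf3* and the small MAF genes fell as well. *Atf3* (MGP_C57BL6NJ_G0017341, chr1:204512664-204563744, minus strand) read 1441, 1602 and 1641 CPM in Pdk4fl/fl and 48.9, 55.6 and 54.0 CPM in Pdk4SMKO. The libraries of each genotype lay close together, and the mean of 52.9 ± 3.51 CPM was 29.5-fold below that of 1562 ± 106 CPM (SD, n = 3 each). Its log2 fold change of -4.88 (SE 0.14, edgeR adjusted p = 9.68e-09) followed that of *Jun* in size within the family. *Maff* (MGP_C57BL6NJ_G0022482, chr15:82759020-82771623, plus strand) read 1323, 1541 and 1583 CPM in Pdk4fl/fl and 134, 150.2 and 136 CPM in Pdk4SMKO. The mean fell 10.6-fold, from 1482 ± 140 to 140.1 ± 8.77 CPM (SD, n = 3 each), with a log2 fold change of -3.40 (SE 0.14, edgeR adjusted p = 2.28e-08). *Mafk* (MGP_C57BL6NJ_G0030721, chr5:150155878-150167019, plus strand) read 296, 324 and 278 CPM in Pdk4fl/fl and 92.5, 79.0 and 71.3 CPM in Pdk4SMKO. Its mean fell 3.70-fold, from 299 ± 23.1 to 80.9 ± 10.7 CPM (SD, n = 3 each), with a log2 fold change of -1.89 (SE 0.13, edgeR adjusted p = 6.45e-07). *Tmem184a* on the opposite strand overlaps the end of *Mafk* and had at most 15 counts in any library.

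**Figure D2:**
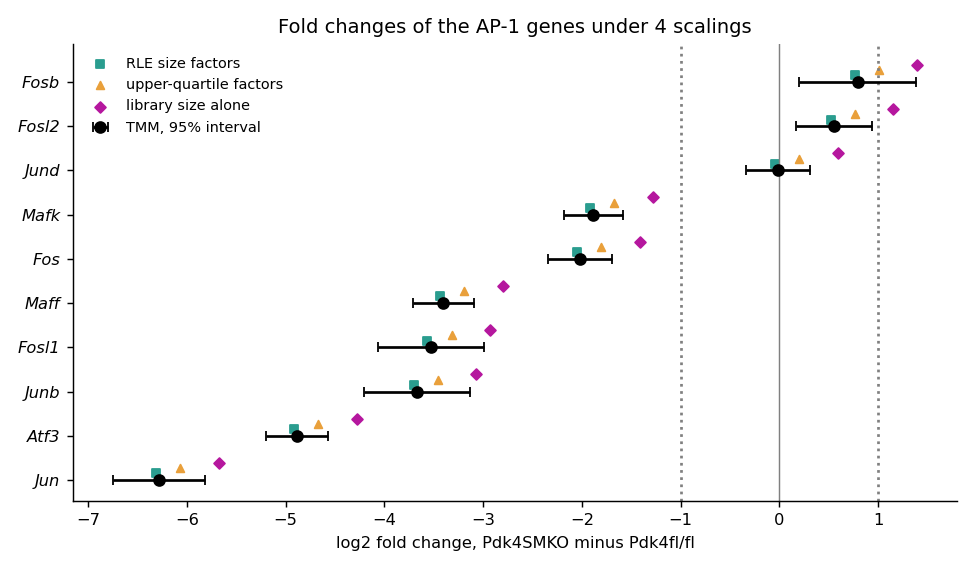
Black points are log2 fold changes of the 10 genes under TMM with 95% intervals, coloured points are the same fit under 3 other scalings, and dotted lines mark a 2-fold change. *Jun* at -6.28 and 6 further genes lie left of -1 under all 4 scalings, *Jund* moves from -0.01 to 0.59, and *Fosb* and *Fosl2* pass 1 with library size alone.

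The shift was read in a further way that does not depend on scaling between libraries, as the share of each gene in its branch within a library, on counts per kb of the gene length in the table. Among the 3 JUN genes, the share of *Junb* was 72.3% ± 0.824 in Pdk4fl/fl and 71.9% ± 2.28 in Pdk4SMKO (SD, n = 3 each), and the groups overlapped. The share of *Jun* was 25.8% ± 0.701 in Pdk4fl/fl and 4.30% ± 0.546 in Pdk4SMKO, while that of *Jund* was 1.92% ± 0.449 and 23.8% ± 1.73. Thus the JUN transcripts other than *Junb* were mostly *Jun* in one genotype and mostly *Jund* in the other. Among the 4 FOS genes, *Fosl1* made up 53.4% ± 4.43 in Pdk4fl/fl and 19.0% ± 5.87 in Pdk4SMKO, whereas *Fosl2* made up 6.69% ± 0.761 and 40.3% ± 0.361. The share of *Fos* was 39.8% ± 5.18 and 39.6% ± 5.56 and overlapped. *Fosb* made up 0.154% ± 0.0105 and 1.10% ± 0.134. The values of the FOS branch depend on the gene lengths used, since *Fosl2* is listed with 9699 bases and *Fosl1* with 1707. On counts without division by length, the difference in the share of *Fos*, Pdk4SMKO minus Pdk4fl/fl, was -19.6 percentage points, against -0.216 points per kb.

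**Figure D3:**
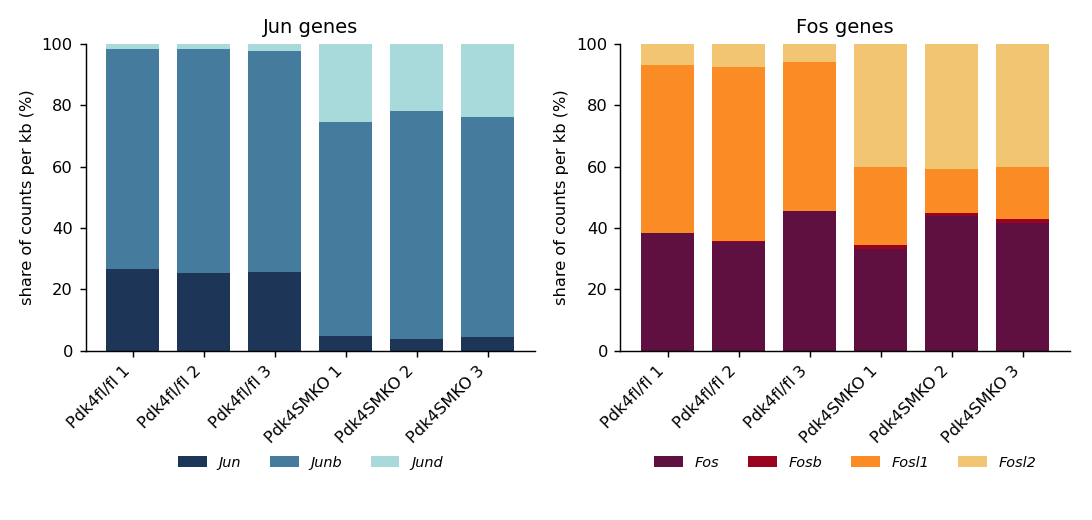
Stacked bars give the share of each gene in the counts per kb of the JUN genes (left) and FOS genes (right) in each library, from 0 to 100%. *Junb* holds about the same part of every bar in the left panel, between 69.7% and 74.3%, and *Fosl2* holds up to 40.7% of a Pdk4SMKO bar against at most 7.42% of a Pdk4fl/fl bar in the right panel.

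Per kb, the summed level of the JUN genes was 3489 ± 667 CPM per kb in Pdk4fl/fl and 275 ± 69.6 in Pdk4SMKO (SD, n = 3 each). The summed level of the FOS genes was 424 ± 60.6 and 104 ± 6.63 CPM per kb, 24.5% of the Pdk4fl/fl level. Without division by length, a setting added after the values were seen, it was 1062 ± 159 and 542 ± 37.9 CPM, or 51.0%. Per kb, the ratio of JUN to FOS counts within a library was 7.49, 9.22 and 7.93 in Pdk4fl/fl and 2.30, 3.20 and 2.36 in Pdk4SMKO, with no overlap. Without division by length it was 6.65, 7.998 and 7.09 in Pdk4fl/fl and 0.972, 1.29 and 0.970 in Pdk4SMKO. JUN counts thus exceeded FOS counts in every library per kb, but in 1 of the 3 Pdk4SMKO libraries without division by length, and the ratios of the genotypes did not overlap either way. All 10 genes took 0.982% ± 0.142 of the counts of a Pdk4fl/fl library and 0.173% ± 0.0208 of a Pdk4SMKO library.

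The order of levels also differed. In Pdk4fl/fl, *Junb* led with 2524 CPM per kb, followed by *Jun* with 900, *Atf3* with 725 and *Maff* with 700, and neighbours among these last 3 overlapped between libraries. Next came *Fosl1* with 228 and *Fos* with 167 CPM per kb, which overlapped, then *Mafk* with 76.7, *Jund* with 65.3, *Fosl2* with 28.6 and *Fosb* with 0.655, each below the one before in every library. In Pdk4SMKO, *Junb* again led with 198 CPM per kb. *Maff* with 66.1 and *Jund* with 64.7 followed and overlapped, as did *Fosl2* with 42.0 and *Fos* with 41.2. Below them, *Atf3* with 24.5, *Mafk* with 20.7 and *Fosl1* with 19.7 overlapped with their neighbours, and *Jun* with 11.6 and *Fosb* with 1.14 CPM per kb came last. *Jun* therefore moved from second to ninth place in the family. Among the 14085 genes tested, its rank per kb went from 79 to 4147 and that of *Atf3* from 98 to 1999, while *Junb* went from 22 to 150.

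**Figure D4:**
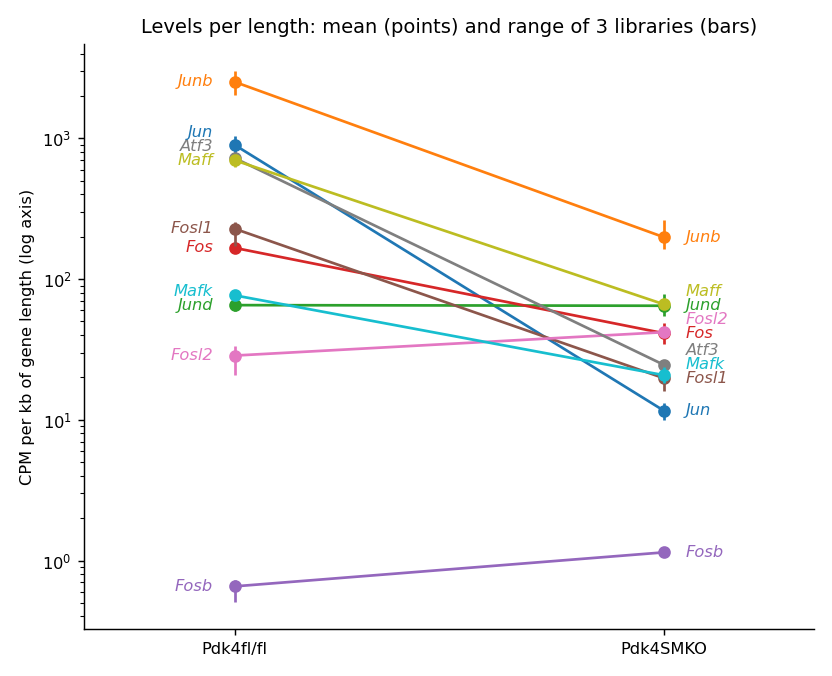
Points are mean levels in CPM per kb on a log axis, bars the range of the 3 libraries, and lines join the 2 genotypes. *Jun* falls from 900 to 11.6 and crosses every gene but *Junb* and *Fosb*, while the lines of *Jund*, *Fosl2* and *Fosb* do not fall with it.

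Other bZIP factors that pair with AP-1 proteins were divided. Of 22 such genes found, 18 were tested, and 7 were lower, 3 higher and 8 not called, and the median of their log2 fold changes was -0.68. *Ddit3*, which encodes the stress factor CHOP, read 439 ± 21.2 CPM in Pdk4fl/fl and 22.3 ± 6.39 CPM in Pdk4SMKO (log2 fold change -4.29, edgeR adjusted p = 4.94e-08). *Atf4*, the master factor of the integrated stress response, read 1171 ± 42.4 and 220 ± 6.34 CPM (-2.42). *Atf2*, a partner of JUN at the cyclic AMP response element, read 267 ± 8.81 and 65.8 ± 6.18 CPM (-2.02). Higher were *Nfe2l1* (1.30), which governs proteasome genes, and *Maf* (1.25), a large MAF. Chosen after their values were seen, *Nfe2l2*, which encodes NRF2, had a log2 fold change of -0.58 and was not called, and *Bach1*, the repressor that shares small MAF partners with NRF2, was lower at -1.85. Over all 36 other genes that the table annotates as bZIP factors, 29 were tested, of which 8 were lower, 5 higher and 16 not called, with a median of -0.45. The lowest value among them was -5.18, of *9430076C15Rik*, which fell from 221 ± 47.8 to 6.07 ± 0.367 CPM. The calls of both lists stand beside 26.5% lower and 32.8% higher among all genes tested.

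The MAP kinases that phosphorylate JUN and induce FOS did not share one direction. Of 26 genes tested of the JNK, ERK and p38 pathways, 17 were not called, 7 were higher and 2 lower, and the median of their log2 fold changes was 0.05. Over all genes tested, 32.8% were called higher and 26.5% lower. The higher genes included *Mapk13*, a p38 kinase, with at most 1 count in a Pdk4fl/fl library and 13.6 ± 2.27 CPM in Pdk4SMKO. *Map3k5*, which encodes ASK1, read 0.462 ± 0.138 CPM in Pdk4fl/fl and 17.1 ± 0.282 CPM in Pdk4SMKO (5.16), and *Rps6ka4*, the kinase MSK2, read 31.9 ± 5.64 and 109 ± 17.8 CPM (1.77). Lower were *Map2k6*, an activator of p38, at -4.44, and *Mapk12* at -1.33. Genes of principal kinases, chosen after their values were seen, were *Mapk8* (JNK1) at -0.95, *Mapk9* (JNK2) at 0.31 and *Mapk3* (ERK1) at -0.78, and none of these 3 passed the fold limit. Kinase activity was not measured.

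SRF and its cofactors drive *Fos* and other immediate early genes through the CArG box. Of the 7 genes of this list, *Srf* at 1.70, *Mkl2* at 2.30, *Elk4* at 2.27, *Elk3* at 1.29 and *Mkl1* at 1.24 were higher, and *Elk1* at -1.59 was lower. *Myocd*, the smooth muscle cofactor of SRF, had a log2 fold change of -0.58 and was not called. *Srf* read 27.1 ± 5.38 CPM in Pdk4fl/fl and 88.5 ± 12.6 CPM in Pdk4SMKO (SD, n = 3 each; edgeR adjusted p = 7.58e-06). Over all genes tested, 32.8% were called higher and 26.5% lower. Activity and binding of SRF and its cofactors were not measured, and a link to the level of *Fos* was not tested.

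mRNAs of AP-1 genes carry AU-rich elements, which proteins of the next list bind. *Zfp36*, which encodes tristetraprolin and is itself an immediate early gene, fell from 1194 ± 151 to 43.4 ± 5.59 CPM (log2 fold change -4.78, edgeR adjusted p = 1.45e-08). *Elavl1* (-2.03), which encodes the stabilizing protein HuR, *Hnrnpd* (-1.99), which encodes AUF1, and *Khsrp* (-1.63) were also lower. *Zfp36l1* at -0.67 and *Zfp36l2* at 0.19 were not called, and the median of the 6 genes was -1.81. Among 5 genes of JUN and FOS protein turnover, *Usp28* was lower (-2.29) and *Fbxw7*, whose ubiquitin ligase degrades JUN, was higher (2.07). *Rfwd2*, *Itch* and *Cops5* were not called, and the median was 0.08.

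Genes known as AP-1 targets moved in both directions. Of 20 tested, 8 were lower, 9 higher and 3 not called, and the median of their log2 fold changes was 0.79. Calls in both directions were also frequent among all genes tested, with 26.5% lower and 32.8% higher. The lower genes included *Hmox1*, which encodes haem oxygenase 1, at 4506 ± 339 CPM in Pdk4fl/fl and 214 ± 31.7 CPM in Pdk4SMKO (-4.39, edgeR adjusted p = 1.82e-08). *Cd44*, the hyaluronan receptor, fell from 665 ± 49.4 to 93.3 ± 23.3 CPM (-2.83), and the chemokine *Ccl2* from 160.2 ± 16.7 to 42.0 ± 21.9 CPM (-1.93). By contrast, *Mmp3*, a stromelysin, rose from 18.6 ± 12.1 to 529 ± 38.4 CPM (4.83), the collagenase *Mmp13* from 33.3 ± 13.8 to 209.6 ± 76.7 CPM (2.65), and *Ccnd1*, which encodes cyclin D1, from 36.6 ± 5.46 to 502 ± 148 CPM (3.78). The list was taken from textbook knowledge, and binding of AP-1 at these genes in MASMCs was not measured.

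Genes of the antioxidant response, where small MAF proteins pair with NRF2, were higher for 5 of the 9 tested, lower for 1 and not called for 3, with a median of 1.19. *Srxn1* rose from 11.3 ± 1.46 to 71.7 ± 9.14 CPM (2.67), *G6pdx* from 17.1 ± 2.53 to 98.3 ± 5.72 CPM (2.52) and *Nqo1* from 5.95 ± 2.41 to 26.6 ± 5.13 CPM (2.17). The lower gene was *Hmox1*, which is in both lists and is a known target of repression by BACH1.

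The immediate early genes outside AP-1 were likewise divided, with 6 of 17 lower, 8 higher and 3 not called and a median of 1.00. These calls, too, stand beside 26.5% lower and 32.8% higher among all genes tested. *Egr1*, a zinc finger factor induced together with *Fos*, fell from 8655 ± 1297 to 601 ± 135 CPM (-3.85, edgeR adjusted p = 1.31e-07). *Egr2* (-3.19) and *Ier2* (-1.96) were lower too. On the other side, *Ctgf* rose from 29.2 ± 5.85 to 1391 ± 459 CPM (5.58), *Cyr61* from 47.3 ± 2.10 to 915 ± 50.5 CPM (4.27) and *Klf2* from 0.620 ± 0.284 to 10.9 ± 4.26 CPM (4.11). *Ctgf* and *Cyr61* encode secreted matricellular proteins that are known as targets of YAP and SRF. The 3 genes of angiotensin II receptors were too low to test, with a summed level of at most 0.681 CPM in Pdk4fl/fl and 0.491 CPM in Pdk4SMKO.

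**Figure D5:**
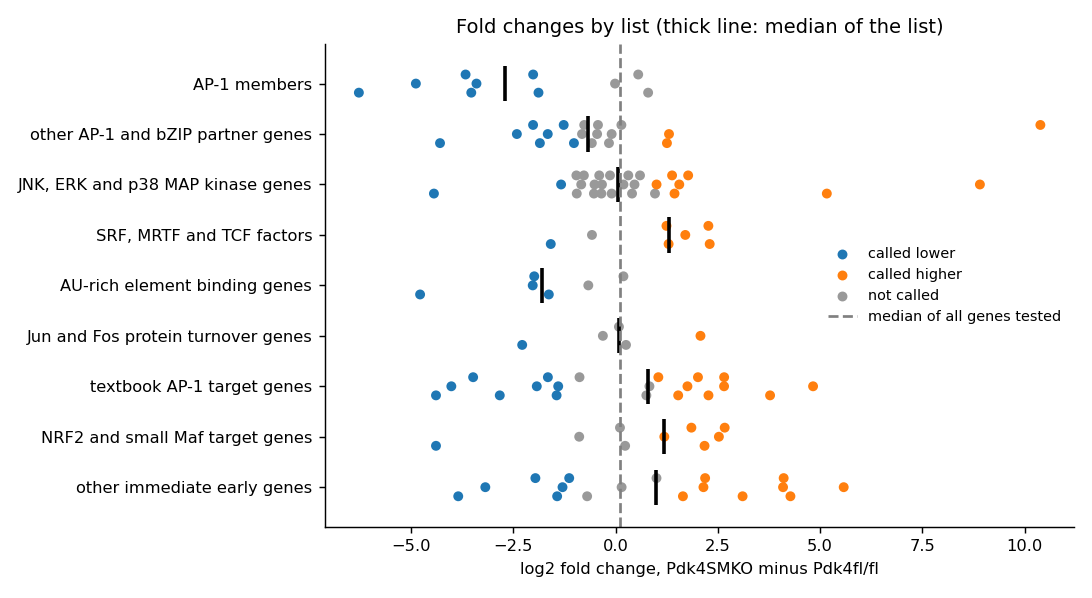
Each point is the log2 fold change of 1 tested gene, coloured by its call, thick lines are medians of each list, and the dashed line is the median of all genes tested. The AP-1 genes have a median of -2.71 and no point called higher, whereas the textbook AP-1 targets spread from -4.39 to 4.83 and the SRF, MRTF and TCF factors have a median of 1.29.

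Markers of cell types moved with genotype beside the AP-1 genes. Their calls stand beside 26.5% lower and 32.8% higher among all genes tested. Of 8 smooth muscle markers, 4 were higher and 3 lower, with a summed level of 785 to 811 CPM in Pdk4fl/fl and 723 to 954 CPM in Pdk4SMKO. *Acta2*, which encodes smooth muscle actin, and *Lmod1* were higher (1.59 and 2.34), while *Tagln* (-2.26), *Smtn* (-2.28) and *Cnn1* (-1.50) were lower. By RT-qPCR, the study reported more mRNA of *Acta2*, *Cnn1* and *Tagln* (SM22α) in Pdk4SMKO MASMCs, with or without Ang II. *Myh11*, whose promoter drives the Cre, was low in both genotypes. It had 8, 10 and 10 counts in Pdk4fl/fl and 62, 44 and 46 in Pdk4SMKO, and was called higher (1.97). All 7 mesothelial markers tested were higher, with sums of 74.2 to 99.99 CPM in Pdk4fl/fl and 723 to 1325 CPM in Pdk4SMKO, and *Krt18* had at most 1 count in a Pdk4fl/fl library. Of 6 fibroblast markers tested, 3 were higher and 1 lower, with sums of 626 to 855 and 5152 to 7055 CPM. Most of these sums was *Col1a1*, with 619.7 ± 125 and 5901 ± 1146 CPM, while *Dpt* was lower (-1.02) and *Pdgfra* (0.35) and *Pi16* (-0.34) were not called. Of 7 macrophage and leukocyte markers tested, 6 were higher and 1 lower, with sums of 22.7 to 40.1 and 62.8 to 64.1 CPM, and the Pdk4fl/fl libraries held 0 counts of *Adgre1*, *C1qa*, *C1qb* and *Tyrobp*. Most of the Pdk4fl/fl sum was the lower marker *Cd68* (-2.85), with 31.2 ± 8.78 and 4.29 ± 2.18 CPM. Most of the Pdk4SMKO sum was *Cd14* (4.78), with 1.65 ± 0.435 and 45.7 ± 11.7 CPM. Both endothelial markers tested, of 7 listed, were lower, with sums of 14.1 to 23.7 and 2.84 to 5.62 CPM. Of 6 proliferation markers, 2 were lower and 4 not called, with sums of 480 to 577 and 264 to 436 CPM. The part of these markers in the AP-1 values was not tested, and cell composition and genotype cannot be told apart in these libraries.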

How the data were processed

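RNA of Ang II-treated MASMCs was sequenced as paired-end reads in 3 Pdk4fl/fl and 3 Pdk4SMKO libraries, grouped by the genotype in the labels. The authors deposited whole-number counts of reads per gene, without normalization. The labels name the GRCm39 build, while the identifiers and positions are those of an annotation of the C57BL/6NJ strain. The aligner, the counting program and the use of strand are not given in the sources used here. The labels name a SMARTER kit and the study's methods an NEBNext Ultra kit.

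Genotypes were compared with edgeR 4.0.16 in R 4.3.3 (filterByExpr, TMM, quasi-likelihood test on genotype, Benjamini-Hochberg adjustment over 14085 genes). The call required an adjusted p below 0.05 with a change of 2-fold or more. CPM used TMM-scaled totals, and SDs are over 3 libraries. A count of 3, taken as the floor, equals 0.132 to 0.227 CPM and covers counting error only, and no molecular identifiers are named in the sources used here. Replicates were compared, and none differed by less than the sampling noise. DESeq2 1.42.0, other scalings, filters, thresholds, a replicate block and leaving out libraries were alternatives. On simulated counts, edgeR recovered 184 of 189 changed genes tested and called 3 unchanged genes among 13703 tested. The simulation changed only 200 genes, equally up and down. In the data, 26.5% of genes were called lower and 32.8% higher. The simulation therefore does not test the scaling when so many genes differ.

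The 10 AP-1 genes and the lists were chosen with earlier results of these data known. In each list, up to 3 called genes per direction were named by the size of the log2 fold change, among those with at least 5 CPM in the higher genotype, and lists of 7 or fewer genes could be given whole, while cell type markers are given mainly by counts and sums. Symbols missing from the table were left out, and some genes of these lists are not reported here. No protein sequences were used here.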

Additional observations from a re-analysis of the deposited data

How the results depend on the processing

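The 7 AP-1 genes called lower kept that call in 16 of 16 alternatives each, with log2 fold changes of -6.43 to -5.68 for *Jun*, -3.92 to -3.07 for *Junb*, -2.14 to -1.42 for *Fos*, -3.80 to -2.93 for *Fosl1*, -4.94 to -4.28 for *Atf3*, -3.48 to -2.80 for *Maff* and -1.98 to -1.28 for *Mafk*. The scaling moved the median of all genes tested by 0.61 with library size alone and by 0.21 with upper-quartile factors. With library size alone, 2390 genes were lower and 6184 higher, in place of 3733 and 4616. The number of AP-1 genes called higher, 0 under TMM, was 1 with upper-quartile factors or a fold limit of 1.5 and 2 with library size alone or no fold limit. Their median of -2.71 was -2.50 with upper-quartile factors, -2.11 with library size alone and -2.61 when every library had to hold 10 counts or more. *Jund*, with a value near 0, turned positive with upper-quartile factors (0.20), library size alone (0.59), no filter (0.033) and the minimum of 10 counts per library (0.085), and lay between -0.16 and 0.10 when each library was left out in turn. Shares of *Jun*, *Jund*, *Fos*, *Fosb* and *Fosl2* moved without division by length, with differences of -30.9, 29.4, -19.6, 0.565 and 49.2 percentage points, and kept their signs. The shares with and without this division differ through the gene lengths alone. Leaving out 1 library gave 7 lower AP-1 genes each time, and 0 higher.

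Same-numbered libraries deviated together only weakly (correlations 0.04, 0.06 and 0.18), so the numbers were not taken as pairs. With the replicate number as a block, 8281 genes were called in place of 8349, with 7 AP-1 genes lower and 0 higher and a median of -2.71, and no call of a gene named here changed. Of the alternative values of other named genes, 879 kept their call and 10 fell below a limit, among them *Mapk12*, *Elk1* and *Cnn1* with library size alone. Most were of *Dpt*, which lost its call with upper-quartile factors, library size alone, no filter and the minimum of 10 counts. It also did so without Pdk4fl/fl replicate 3 or without Pdk4SMKO replicate 1. Depth limits *Fosb*, with 25 to 96 counts per library, more than the other 9 genes.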
